A study of Mus musculus with 8 samples.

Results

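Autophagy and lysosome genes were examined in the striatum of old mice with an expanded CAG repeat in Htt, the mouse counterpart of the Huntington's disease gene. The 37 genes were listed by symbol for their known roles in the pathway. The list uses no measured value as a criterion but was drawn up with earlier results of these data known, and all 37 were found among the 18193 genes on the arrays that had a probe set assigned to 1 gene. A probe set is the array's set of short probes for 1 transcript region, and the brightest probe set over the 8 arrays stood for each gene. The mutant group held 4 CHL2 mice, in which 150 CAG repeats derived from human exon 1 had been placed in the endogenous gene on both copies (Q150/Q150), and the wild-type group held 4 mice. All 8 were C57BL/6 X CBA F1 hybrid mice aged 22 months, untreated as far as the labels say, and each gave 1 array of striatal total RNA. Mutants 141, 153 and 154 were female and mutant 191 was male, while wild-type 161 was female and wild types 170, 180 and 200 were male.

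In autophagy, a double membrane closes around cytoplasm, damaged organelles or protein aggregates and fuses with the lysosome, whose acid hydrolases break the content down. A kinase complex and a lipid kinase complex start the membrane, a pair of ubiquitin-like conjugation systems attaches small Atg8-family proteins to it, and receptor proteins bind the cargo to those. Neurons depend on this pathway to clear aggregate-prone proteins, among them mutant huntingtin, and transcription factor EB drives many lysosomal and autophagy genes together.

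Levels are given on the log2 scale on which the values were deposited, so a difference of 1 is a doubling of signal. The log2 changes are mutant minus wild type, adjusted for recorded sex with limma, and a gene was said to rise or fall if its Benjamini-Hochberg adjusted p over all 18193 genes was under 0.05. Array medians lay between 4.95 and 4.98, and 4 mice a group limit the precision of every value. Wild-type 170 stood apart in the control probe sets that compare the 3' with the 5' end of a transcript, a measure of RNA integrity. Its 3' minus 5' difference was 1.37 for Gapdh and 2.65 for beta-actin, against 0.32 to 0.43 and 1.24 to 1.51 in the other 7 mice. Htt itself had a log2 change of -0.67 (SE 0.09, adjusted p = 0.00101), and since the position of its probe sets relative to the altered exon was not analysed here, it does not check the genotype labels. Of 14 markers of medium spiny neurons, the main striatal cell type, 14 fell in the mutants.

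Most autophagy and lysosome genes did not pass the test. The lysosomal protease gene Ctsl and the cargo receptor gene Sqstm1 rose, by 1.37-fold and 1.27-fold, and 0 of the 37 fell. The share that rose, 2 of 37 or 5.41%, lay near the 6.40% of all genes that rose, and 6.01% of all genes fell. At an unadjusted p under 0.05, 9 members were higher and 2 lower, or 24.3% and 5.41%, where 14.0% and 11.8% of all genes were. The values of the mutants all lay above those of the wild types for 8 members (21.6%) and all below for 3 (8.11%), against 11.4% and 9.27% of all genes. The log2 change was above 0 for 26 of the 37, or 70.3%, and for 51.2% of all genes, with a median of 0.10 among the members and 0.01 over all genes. The members all had group means above 5, while all genes include many dim ones, whose changes are compressed. Signal level was not matched in these comparisons, and shares by direction among brighter genes alone were not computed. In a fit on the genes brighter than the median gene, 2540 passed in either direction. Among the members in that fit, which left out 1 as dimmer, 6 were higher and 1 lower, a smaller share than of those genes. The changes were small, as were those of most genes, with a median absolute log2 change of 0.121 in the members and 0.126 over all genes. They ran from -0.37 for Atg10 to 0.45 for Ctsl among the members. The 95% interval stayed within 1.5-fold in either direction for 32 of the 37, and for 15357 of all 18193 genes.

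**Figure D1:**
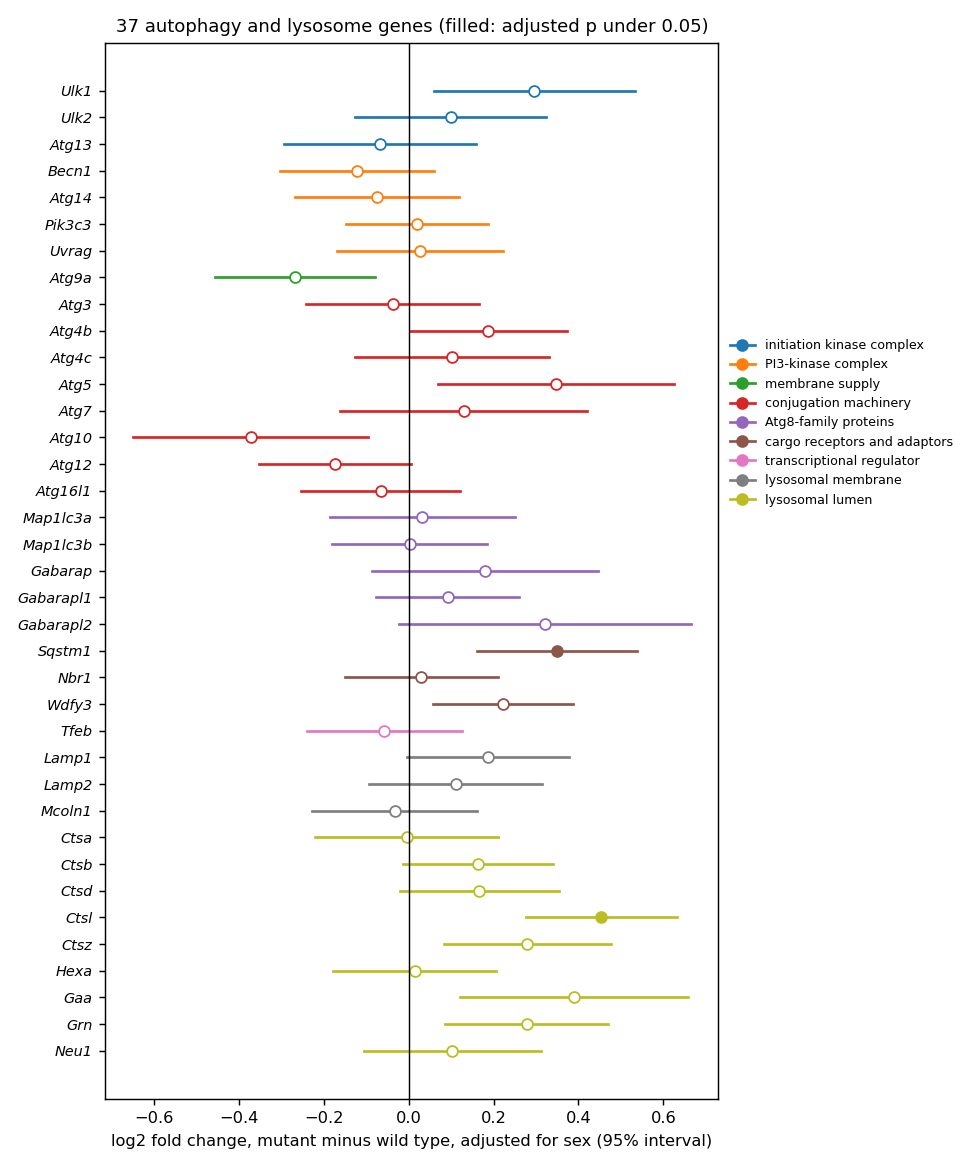
Sex-adjusted log2 fold change of each gene, mutant minus wild type, with its 95% interval (horizontal lines) and coloured by role, filled where the adjusted p was under 0.05. Ctsl at 0.45 and Sqstm1 at 0.35 are the filled points, and 26 of the 37 points lie right of 0.

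Ctsl encodes cathepsin L, a cysteine protease of the lysosome. The mutants 141, 153, 154 and 191 had log2 signals of 10.39, 10.33, 10.31 and 10.39, and the wild types 161, 170, 180 and 200 had 9.92, 9.84, 9.99 and 9.91. The mutants lay close together and all above the wild types. The means were 10.36 ± 0.04 and 9.91 ± 0.06 (SD, n = 4 each), and the log2 change was 0.45 (SE 0.08, limma adjusted p = 0.00463). A second Ctsl probe set had means of 3.88 in mutants and 3.75 in wild types, with all 8 values under 5 (log2 of a signal of 32), and had a change of 0.03. When the 2 probe sets were averaged the log2 change was 0.24 and the call was lost (adjusted p = 0.0766). Sex was unevenly spread, and mice 161 and 191 are each the single animal of their sex in their group. With the term for sex kept, the call was also lost without mutant 191 (log2 change 0.43, adjusted p = 0.0865) and without wild-type 161 (0.48, adjusted p = 0.0508). With no term for sex it passed without either mouse, at an adjusted p of 0.00409 without 191 and 0.00374 without 161. Over all 20 alternatives the adjusted p ran from 0.000216 to 0.0865.

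Sqstm1 encodes p62, a receptor that binds ubiquitinated cargo and Atg8-family proteins and is itself degraded by autophagy. Its log2 signals were 10.91, 10.89, 10.81 and 10.84 in mutants 141, 153, 154 and 191, against 10.57, 10.34, 10.45 and 10.55 in wild types 161, 170, 180 and 200. The groups did not overlap, and wild-type 170 was the lowest of the 8. The mutants averaged 10.87 ± 0.05 and the wild types 10.48 ± 0.11 (SD, n = 4 each), with a log2 change of 0.35 (SE 0.09, limma adjusted p = 0.0230). Without wild-type 170, the array with the wide 3' minus 5' difference, the change was 0.32 (adjusted p = 0.0320). The call was lost without mutant 191 (0.30, adjusted p = 0.237) and without wild-type 161 (0.40, adjusted p = 0.117) while sex stayed in the fit, and held without either mouse once sex was left out (adjusted p = 0.0112 and 0.00694). Over all 20 alternatives the adjusted p lay between 0.00243 and 0.237. A second, dim probe set with all values under 5 had a change of 0.21 (unadjusted p = 0.0356).

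Promoters of members were searched for CACGTG, the core of the motif called CLEAR that transcription factor EB binds, and for its longer form TCACGTGA, which contains the core. Each reads the same on both strands. Of the 37 genes, 30 were matched by symbol to a RefSeq promoter of build GRCm38.p6, which spans 250 bases before to 50 after an annotated start, with 35 starts in all. The core was found at 10 of those 35 starts (28.6%) and in 7.15% of the 32851 promoters of the table, and the longer form at 4 of 35 and in 0.974% of the table. The 10 genes with the core were Atg14, Atg3, Atg5, Atg7, Lamp1, Mcoln1, Ctsa, Ctsd, Ctsl and Gaa, so it was shared by a gene that rose and by others that did not pass the test. A match is a description of these letters and not a shown binding site. The motif is that of a factor known to drive lysosomal and autophagy genes. A higher share among genes listed for those roles could thus be anticipated from the choice of genes, and it says nothing about the mutants.

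The promoters of the 2 genes that rose are shown with those of Lamp1, which held 4 copies of the core, a number reached by 8 promoters of the table, and of Ctsd, which held the longer form. Lamp1 and Ctsd were chosen for display after their values were seen. Each sequence is written 5′ to 3′ on the strand of the gene in lower case, with the core in capitals. They lie at chr11:50210771-50211070 on the minus strand (Sqstm1), chr13:64370471-64370770 on the minus strand (Ctsl), chr8:13158911-13159210 on the plus strand (Lamp1) and chr7:142387778-142388077 on the minus strand (Ctsd).
Sqstm1: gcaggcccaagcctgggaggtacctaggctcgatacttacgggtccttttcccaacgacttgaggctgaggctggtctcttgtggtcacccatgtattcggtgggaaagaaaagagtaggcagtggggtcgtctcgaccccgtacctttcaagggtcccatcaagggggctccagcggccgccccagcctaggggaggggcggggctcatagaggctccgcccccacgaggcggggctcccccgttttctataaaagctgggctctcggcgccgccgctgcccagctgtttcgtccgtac
Ctsl: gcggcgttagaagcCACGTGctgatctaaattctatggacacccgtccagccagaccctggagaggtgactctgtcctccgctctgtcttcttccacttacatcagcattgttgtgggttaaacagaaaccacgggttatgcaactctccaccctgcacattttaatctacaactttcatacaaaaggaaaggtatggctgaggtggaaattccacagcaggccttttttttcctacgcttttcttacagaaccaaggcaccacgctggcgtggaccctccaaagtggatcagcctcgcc
Lamp1: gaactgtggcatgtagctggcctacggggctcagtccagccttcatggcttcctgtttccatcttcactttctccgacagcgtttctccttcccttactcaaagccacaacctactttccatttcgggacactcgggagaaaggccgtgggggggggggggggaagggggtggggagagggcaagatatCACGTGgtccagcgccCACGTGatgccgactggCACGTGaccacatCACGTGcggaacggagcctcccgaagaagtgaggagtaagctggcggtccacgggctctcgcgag
Ctsd: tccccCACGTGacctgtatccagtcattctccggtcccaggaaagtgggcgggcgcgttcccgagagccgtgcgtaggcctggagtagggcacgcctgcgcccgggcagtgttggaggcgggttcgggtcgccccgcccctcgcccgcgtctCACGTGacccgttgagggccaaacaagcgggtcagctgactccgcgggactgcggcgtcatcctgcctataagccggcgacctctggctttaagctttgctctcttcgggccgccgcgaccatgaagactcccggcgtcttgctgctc

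The Sqstm1 window held no copy of these letters. In Ctsl the single copy began 236 bases before the start. In Lamp1 the copies began 61, 45, 28 and 15 bases before the start, and in Ctsd 245 and 98 bases before it.

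The other cathepsins and lumenal proteins did not pass the test. Of the 9 lumenal members 1 rose, 8 had a change above 0, and the median log2 change was 0.17. Gaa, the acid alpha-glucosidase that breaks down glycogen, had log2 signals of 10.82, 10.85, 10.42 and 10.42 in mutants 141, 153, 154 and 191, against 10.18, 10.21, 10.13 and 10.12 in wild types 161, 170, 180 and 200. All mutants lay above all wild types, and the mutants fell into a higher and a lower pair. That spread, an SD of 0.24 in mutants and 0.05 in wild types, stood beside a log2 change of 0.39 (SE 0.12, adjusted p = 0.0621). A second Gaa probe set gave a change of 0.47 (SE 0.09) that passed among all 45037 probe sets (adjusted p = 0.0168), with mutants at 10.65, 10.55, 10.40 and 10.43 and wild types at 10.00, 10.07, 9.97 and 10.03. On the mean of the probe sets Gaa passed too (0.43, adjusted p = 0.0195), as in 8 of its 20 alternatives, whose adjusted p ran from 0.00930 to 0.465.

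Grn encodes progranulin, a secreted and lysosomal glycoprotein whose loss causes lysosomal storage in human and mouse. Its log2 signals were 9.13, 9.08, 9.18 and 9.26 in mutants 141, 153, 154 and 191, against 8.87, 9.10, 8.91 and 8.88 in wild types 161, 170, 180 and 200. The groups overlapped by wild-type 170 alone. The change was 0.28 (SE 0.09, adjusted p = 0.0633), it passed without wild-type 170 (0.31, adjusted p = 0.0349), and over its alternatives the adjusted p lay between 0.0233 and 0.322. Ctsz, the carboxypeptidase cathepsin Z, averaged 9.42 ± 0.13 in mutants and 9.21 ± 0.09 in wild types, a change of 0.28 (SE 0.09, adjusted p = 0.0679). Mutant 153, at 9.26, lay below wild types 180 and 200, at 9.27 and 9.30.

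The remaining lumenal members had smaller differences. Ctsd, the aspartic protease cathepsin D, had mutants between 9.72 and 9.80 and wild types between 9.45 and 9.66, which did not overlap, with a log2 change of 0.17 (adjusted p = 0.253). Ctsb, the cysteine protease cathepsin B, averaged 11.64 ± 0.03 in mutants and 11.52 ± 0.09 in wild types (SD, n = 4 each), a change of 0.16 (adjusted p = 0.234). Wild-type 170, at 11.64, lay inside the range of the mutants. The sialidase gene Neu1 had a change of 0.10 (95% interval -0.11 to 0.31) and the beta-hexosaminidase subunit gene Hexa one of 0.01 (-0.18 to 0.21). For Ctsa, the protective protein that holds Neu1 and beta-galactosidase in a complex, the change was -0.01 (-0.22 to 0.21). The groups overlapped for these 3 genes.

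Lysosomal membrane proteins gave 0 calls among 3 members. Lamp1, an abundant glycoprotein of the lysosomal membrane, had log2 signals of 11.36, 11.51, 11.34 and 11.30 in mutants 141, 153, 154 and 191, against 11.19, 11.18, 11.19 and 11.04 in wild types 161, 170, 180 and 200. The groups did not overlap, and the change was 0.19 (SE 0.09, adjusted p = 0.204). Lamp2, which is also needed for fusion with autophagosomes and for chaperone-mediated autophagy, had a change of 0.11 (adjusted p = 0.520) at its brightest probe set. Its other 3 probe sets gave changes of 0.60, 0.29 and 0.25, with unadjusted p of 0.0923, 0.0131 and 0.0309, so the value depends on the probe set. Mcoln1, the calcium-permeable channel TRPML1, had a change of -0.03 (95% interval -0.23 to 0.16) at its brightest probe set. Its other probe sets disagreed, at 0.255 and -0.352, with unadjusted limma p of 0.0530 and 0.0331.

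Among cargo receptors and adaptors, Wdfy3, the large scaffold protein Alfy that helps to clear aggregates, stood beside Sqstm1. Its log2 signals were 9.77, 9.80, 9.82 and 9.84 in mutants 141, 153, 154 and 191, against 9.55, 9.63, 9.65 and 9.67 in wild types 161, 170, 180 and 200. The groups did not overlap and the spread was narrow, with an SD of 0.03 in mutants and 0.05 in wild types. Its change of 0.22 (SE 0.07) had an adjusted p = 0.0809 and passed in 3 of 20 alternatives (range of adjusted p 0.00523 to 0.609). Of its other 4 probe sets, 2 lay in the opposite direction, at -0.05 and -0.09, with unadjusted p of 0.730 and 0.467. Both were dim, the first with all values under 5 and the second with means of 5.06 in mutants and 5.09 in wild types. Nbr1, a receptor similar in layout to p62, had a change of 0.03 (95% interval -0.15 to 0.21).

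**Figure D2:**
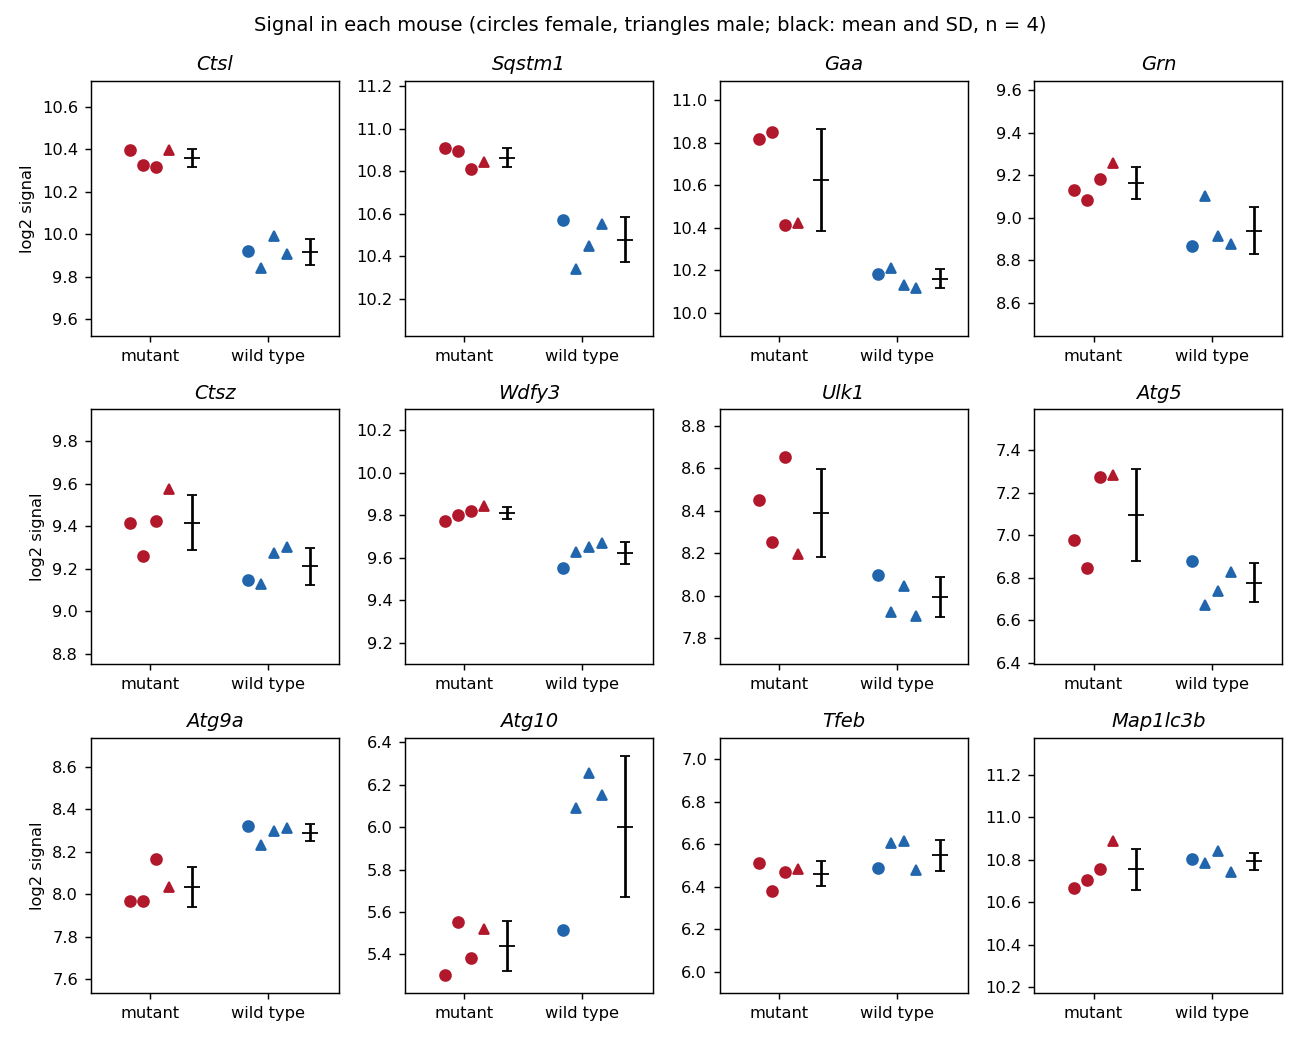
Log2 signal of 12 genes in each mouse, mutants left (red) and wild types right (blue), circles for females and triangles for males, with the group mean and SD in black and every panel spanning 1.2 log2 units. Ctsl, Sqstm1, Gaa, Wdfy3, Ulk1 and Atg9a show groups that do not overlap, and wild-type 161 lies among the mutants for Atg10.

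The initiation kinases gave 0 calls among 3 members. Ulk1, the kinase that receives the signals of mTORC1 and AMPK, had log2 signals of 8.45, 8.25, 8.65 and 8.20 in mutants 141, 153, 154 and 191, against 8.10, 7.92, 8.05 and 7.91 in wild types 161, 170, 180 and 200. All mutants lay above all wild types, with a wider spread among the mutants. The sex-adjusted change was 0.30 (SE 0.11, adjusted p = 0.106), while the fit with no term for sex gave 0.40 (adjusted p = 0.0244), and the adjusted p ran from 0.0160 to 0.481 over the alternatives. Ulk2, its close relative, had a change of 0.10 (95% interval -0.13 to 0.32), and Atg13, the adaptor that links the kinase to its complex, one of -0.07 (-0.29 to 0.16).

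The lipid kinase complex that marks the growing membrane gave 0 calls among 4 members. Becn1, which encodes Beclin 1, averaged 9.65 ± 0.08 in mutants and 9.77 ± 0.02 in wild types (SD, n = 4 each), a change of -0.12 (adjusted p = 0.406), with all mutants lower than all wild types. A second probe set, with a mean of 8.75 in both groups, had a change of 0.03. The catalytic subunit Pik3c3 had a change of 0.02 (95% interval -0.15 to 0.19), the alternative subunits Atg14 one of -0.07 (-0.27 to 0.12) and Uvrag one of 0.03 (-0.17 to 0.22).

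Atg9a, the lipid scramblase whose vesicles seed the membrane, had the lowest p among the members with a change below 0. Mutants 141, 153, 154 and 191 had log2 signals of 7.97, 7.97, 8.17 and 8.03, and wild types 161, 170, 180 and 200 had 8.32, 8.23, 8.30 and 8.31. The groups did not overlap. Its change of -0.27 (SE 0.09) had an adjusted p = 0.0681, and it passed in 6 of 20 alternatives, among them the fit with no term for sex (adjusted p = 0.0353), with a range of 0.0276 to 0.345.

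Of the 8 genes of the conjugation machinery 0 passed, 4 lay above 0 and 4 below, and the median change was 0.03. Atg5, the target to which Atg12 is joined, had mutants at 6.98, 6.85, 7.27 and 7.28 and wild types at 6.88, 6.67, 6.74 and 6.83. Mutant 153 lay below wild-type 161, and the change was 0.35 (SE 0.13, adjusted p = 0.105). It moved to 0.54 without wild-type 161 and 0.16 without mutant 191. Of its other 2 probe sets 1 had a change of 0.29 (unadjusted p = 0.00847) and 1 of -0.04 (unadjusted p = 0.660).

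Atg10, the conjugating enzyme that transfers Atg12 to Atg5, had log2 signals of 5.30, 5.56, 5.38 and 5.52 in mutants 141, 153, 154 and 191, against 5.51, 6.09, 6.26 and 6.15 in wild types 161, 170, 180 and 200. The 3 male wild types lay above every mutant, and the female wild-type 161 lay among the mutants. The change was -0.37 (SE 0.13, adjusted p = 0.0817). It was -0.65 without wild-type 161 (adjusted p = 0.0286) and -0.10 without mutant 191 (adjusted p = 0.767), so its size rests on which mouse represents each sex. Without a term for sex it was -0.56 (adjusted p = 0.0209), and over its 19 alternatives the adjusted p ran from 0.000474 to 0.767.

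The other conjugation genes had small changes. Atg12, the ubiquitin-like protein itself, averaged 8.63 ± 0.04 in mutants and 8.80 ± 0.07 in wild types, with no overlap and a change of -0.17 (adjusted p = 0.208). Atg4b, the main protease that trims Atg8 proteins, averaged 8.29 ± 0.05 in mutants and 8.10 ± 0.08 in wild types, also with no overlap, and had a change of 0.19 (adjusted p = 0.184). Its 3 probe sets all lay above 0. Atg7, the activating enzyme of both systems, had a change of 0.13 (95% interval -0.16 to 0.42), Atg3, the conjugating enzyme for Atg8 proteins, one of -0.04 (-0.24 to 0.17), Atg4c, a further protease, one of 0.10 (-0.13 to 0.33), and the scaffold Atg16l1 one of -0.07 (-0.25 to 0.12).

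Atg8-family genes gave 0 calls among 5, and all 5 changes lay above 0 in the reported fit, where 51.2% of all genes did. The sign changed in 8 of 20 alternatives for Map1lc3b and in 2 of 20 for Map1lc3a. Map1lc3b, the source of the LC3B protein used as a marker of autophagosomes, averaged 10.76 ± 0.10 in mutants and 10.79 ± 0.04 in wild types (SD, n = 4 each), with a sex-adjusted change of 0.00 (95% interval -0.18 to 0.18). Map1lc3a had a change of 0.03 (-0.19 to 0.25) and Gabarapl1 one of 0.09 (-0.08 to 0.26). Gabarapl2 had the widest interval of the family, with a change of 0.32 (-0.02 to 0.66, adjusted p = 0.226). Mutants 141, 153, 154 and 191 stood at 10.13, 10.17, 10.47 and 10.40, and wild types 161, 170, 180 and 200 at 10.04, 9.64, 10.01 and 10.28, so the groups overlapped by wild-type 200. Wild-type 170 was the lowest of the 8 at this Gabarapl2 probe set, the brighter of 2. The other probe set had, in the same order, mutants at 8.96, 9.04, 8.74 and 8.64 and wild types at 8.5, 8.58, 8.52 and 8.54. Its groups did not overlap, wild-type 170 was the highest of the wild types, and the change was 0.26. For Gabarap, wild-type 170 was again the lowest of the 8. That gene had 10.66 to 10.81 in the mutants, 10.56 to 10.66 in the other wild types and 10.21 in that mouse. The Gabarap change was 0.18 (-0.09 to 0.45). The part of the 3' minus 5' difference of mouse 170 in these levels was not tested.

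Tfeb, the gene of transcription factor EB, did not pass. Mutants 141, 153, 154 and 191 had log2 signals of 6.51, 6.38, 6.47 and 6.49, and wild types 161, 170, 180 and 200 had 6.49, 6.61, 6.62 and 6.48. The groups overlapped, and the change was -0.06 (95% interval -0.24 to 0.13, adjusted p = 0.734). Its activity depends on phosphorylation and its place in the cell, which arrays do not measure.

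**Figure D3:**
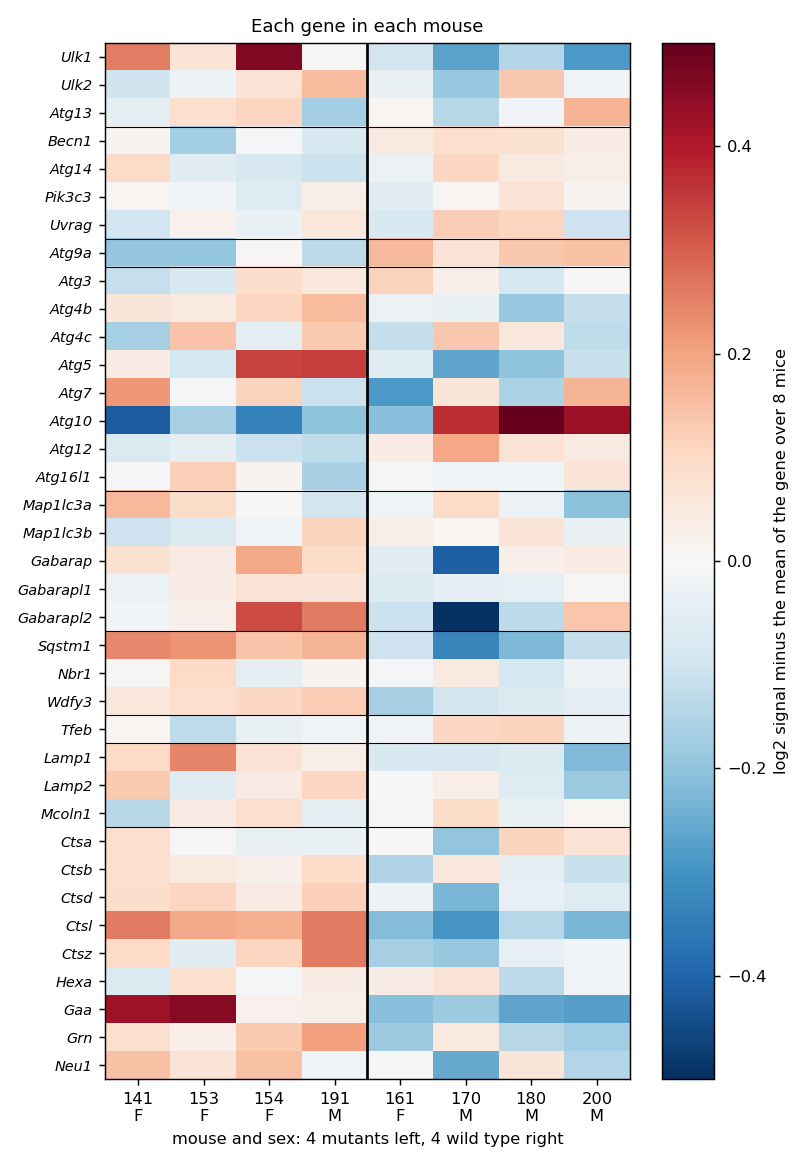
Log2 signal of the 37 genes (rows, in order of role) in the 8 mice (columns, 4 mutants left and 4 wild types right, F female and M male), minus the mean of each gene over all mice, with the colour scale ending at 0.5 in either direction. Ctsl, Sqstm1 and Gaa are higher in the mutants, Atg9a is lower in mutants 141, 153 and 191 and near its mean in mutant 154, and the low cells of wild-type 170 include Gabarap and Gabarapl2.

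The mean over the 9 lumenal genes of each signal minus its gene's mean was 0.07 to 0.13 in the mutants and -0.13 to -0.07 in the wild types. Over the 3 cargo receptors and adaptors it was 0.07 to 0.14 in the mutants and -0.13 to -0.06 in the wild types. Over the conjugation machinery it was -0.06 to 0.02 in the mutants and -0.07 to 0.06 in the wild types. The mice of the groups were thus apart for the first pair of roles and mixed for the third, which is given as a description with no test. They were also apart over all 37 members (0.03 to 0.06 against -0.06 to -0.02) and the Atg8 family (0.02 to 0.11 against -0.17 to -0.01). Narrow gaps parted them for the initiation kinases and lysosomal membrane genes, and the lipid kinase complex was mixed. Among the further lists below, the proton pump and other lysosomal membrane genes were apart. A narrow gap parted the other autophagy genes, at 0.005 to 0.027 in the mutants and -0.033 to 0 in the wild types. The hydrolase and mTORC1 lists overlapped.

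Lysosomal genes are expressed strongly in microglia and astrocytes as well as in neurons, so marker lists of those cells were set beside them. In bulk tissue, fewer cells of a type and less RNA per cell cannot be told apart. Of 14 microglia markers 0 passed, with a mean centred signal of -0.06 to 0.08 in mutants and -0.09 to 0.07 in wild types. The lowest p was that of Aif1, a calcium-binding protein of microglia, whose change was -0.36 (adjusted p = 0.0509), followed by Fcrls (-0.34, adjusted p = 0.232) and C1qa (0.24, adjusted p = 0.417). Of 12 astrocyte markers 2 rose and 1 fell, 4 had a change above 0 and the median was -0.12. All mutants lay below all wild types for 5 of the 12 and above for 1, and at an unadjusted p under 0.05, 3 were higher and 4 lower. Their mean centred signal overlapped between the groups, at -0.08 to 0.03 in mutants and -0.05 to 0.10 in wild types. The astrocyte filament gene Gfap rose by 0.48 (adjusted p = 0.0342) and S100b by 0.42 (adjusted p = 0.00877), while the receptor gene Ntsr2 fell by 0.43 on the log2 scale (adjusted p = 0.0122).

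Oligodendrocyte markers gave 1 rise and 1 fall among 10, Opalin at 0.31 (adjusted p = 0.0199) and Mobp at -0.38 (adjusted p = 0.0225), with a mean of -0.08 to -0.01 in mutants and -0.06 to 0.20 in wild types. The third by p was Cldn11 (-0.38, adjusted p = 0.0626). The medium spiny neuron list lay between -0.81 and -0.57 in mutants and between 0.61 and 0.72 in wild types, led by Scn4b (-2.49), Penk (-1.63) and Gpr6 (-1.89). Of 9 markers of neurons in general 2 rose, Stmn2 by 1.03 (adjusted p = 0.00109) and Uchl1 by 0.56 (adjusted p = 0.00419), and Rbfox3 had a change of -0.24 (adjusted p = 0.0821). Of the 9, 5 had a change above 0, with a median of 0.08. The list averaged 0.06 to 0.21 in mutants and -0.23 to -0.03 in wild types, a mean to which Stmn2 and Uchl1 contribute most. As list means, the medium spiny neuron markers and, by less, the general neuron markers were apart between the groups. The microglia, astrocyte and oligodendrocyte means overlapped. In the astrocyte, oligodendrocyte and general neuron lists 2 or 3 genes each passed. The part of any of these in the lysosomal values was not tested.

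The wider pathway was read from 5 further lists, chosen by function, of which 135 genes were measured and 11 were not analysed here. Of the 135, 14 rose and 4 fell. The counts of rises rested on mice 161 and 191: with sex in the fit 2 genes rose without wild-type 161 and 1 without mutant 191, and with no term for sex 10 and 11 rose. Over all genes, the calls in both directions moved likewise, with 864 without wild-type 161 and 702 without mutant 191 against 2258 with all mice, and with 2400 and 2497 when sex was left out. Of the genes named from these lists, Atp6v1b2 passed in 8 of 20 alternatives (log2 change down to 0.13, adjusted p up to 0.439), Smpd1 in 10 of 20 (down to 0.17, up to 0.424), Prkaa2 in 12 of 20 (down to 0.26, up to 0.362) and Manba in 13 of 19 (down to 0.16, up to 0.229). Lists are described by their counts beside the 6.40% of all genes that rose and 6.01% that fell, which were not matched for signal level.

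The proton pump that acidifies the lysosome, the V-ATPase, had 4 rises and 0 falls among 17 genes, with a median log2 change of 0.18. Atp6v1a, its catalytic subunit, had 10.99, 11.02, 10.96 and 11.01 in mutants 141, 153, 154 and 191, against 10.56, 10.29, 10.59 and 10.36 in wild types 161, 170, 180 and 200, a change of 0.51 (SE 0.10, adjusted p = 0.00675). Atp6v1g1 rose by 0.32 (adjusted p = 0.0203), the accessory subunit Atp6ap1 by 0.31 (adjusted p = 0.0234) and Atp6v1b2 by 0.27 (adjusted p = 0.0460). All mutants lay above all wild types for each of these 4 genes.

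Among 21 other lysosomal membrane proteins 3 rose and 0 fell, with a median of 0.11. Laptm4b, a transmembrane protein of late endosomes and lysosomes, rose by 0.53 (adjusted p = 0.00847), Ostm1, the partner of the lysosomal chloride exchanger, by 0.44 (adjusted p = 0.00998) and Cln3, the gene of juvenile Batten disease in human, by 0.49 (adjusted p = 0.0119). Of 40 other hydrolases and sorting factors 3 rose and 2 fell, with a median of 0.09. The sulfatase gene Arsb rose by 0.35 (adjusted p = 0.0132), the mannosidase gene Manba by 0.48 at a dim level of 5.04 in mutants and 4.67 in wild types (adjusted p = 0.0180), and the acid sphingomyelinase gene Smpd1 by 0.40 (adjusted p = 0.0412). Sort1, the sorting receptor sortilin, fell by 0.54 on the log2 scale (adjusted p = 0.00388). Dnase2a, a lysosomal nuclease gene named after its value was seen to complete the count, had a change of -0.49 (adjusted p = 0.0442).

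Of 34 other autophagy genes 2 rose and 0 fell, with a median of 0.06. Vcp, an ATPase that extracts ubiquitinated proteins and takes part in autophagosome maturation, averaged 11.15 ± 0.03 in mutants and 10.76 ± 0.08 in wild types, a change of 0.38 (adjusted p = 0.0132). Stx17, the SNARE of autophagosomes for fusion with the lysosome, rose by 0.51 (adjusted p = 0.0158) although the groups overlapped, with mutants between 7.79 and 8.15 and wild types between 7.27 and 7.91. Its lowest value was that of wild-type 161, and the call was lost without that mouse (0.32, adjusted p = 0.282) and with no term for sex (0.32, adjusted p = 0.148), with a range of adjusted p from 0.00437 to 0.307 over its alternatives.

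Of 23 genes of mTORC1, AMPK and the relatives of Tfeb, 2 rose and 2 fell. Deptor, an inhibitor within the mTOR complexes, had a log2 change of -0.59 (SE 0.09, adjusted p = 0.00252) and so fell, with mutants at 8.05 ± 0.10 and wild types at 8.62 ± 0.08 (SD, n = 4 each). Rragd, a GTPase that brings mTORC1 to the lysosome, fell by 0.46 on the log2 scale (adjusted p = 0.00387). Flcn, the folliculin gene whose product activates that GTPase, rose by 0.51 (adjusted p = 0.00432), and Prkaa2, the catalytic alpha2 subunit of AMPK, by 0.58 (adjusted p = 0.0271). The median of the list was 0.06, with genes on both sides of 0.

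**Figure D4:**
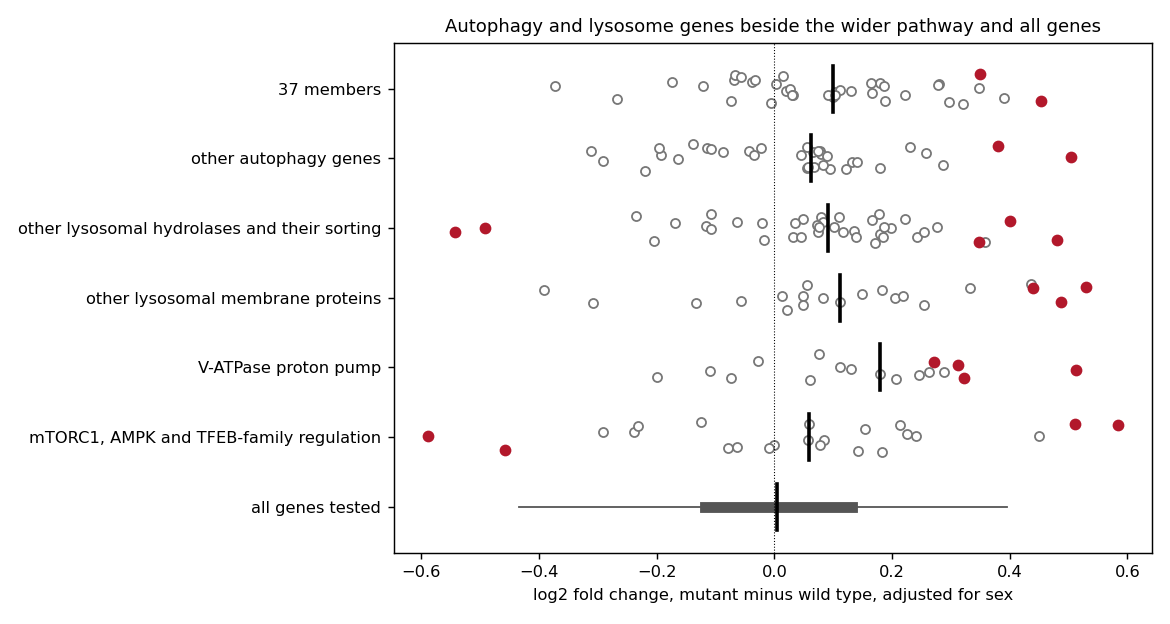
Sex-adjusted log2 fold change, mutant minus wild type, of the 37 members and of 5 further lists (1 point a gene, red where the adjusted p was under 0.05, black bar at the median), with all 18193 genes at the bottom (thin line the 5th to 95th percentile, thick line the 25th to 75th). The medians run from 0.06 to 0.18, and the V-ATPase list stands furthest right.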

How the data were processed

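Total RNA of the striatum was measured on 8 Affymetrix Mouse Genome 430 2.0 arrays, 1 a mouse. The authors deposited log2 values made with RMA in the affy package, per the submitters' processing notes, which corrects background, equalises the distributions of the arrays and summarises the probes of a probe set. Versions, and which arrays RMA took together, are not stated there. The deposited log2 values ran from 2.60 to 14.49. RMA draws small differences of dim probe sets together.

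Of 45101 probe sets, 64 controls were left out, and of the remaining 45037, 34945 had 1 gene symbol, 932 had several and 9160 were unnamed here. The brightest probe set stood for each of 18193 genes. Genotype was tested with recorded sex as a covariate in limma 3.58.1 (R 4.3.3) with lmFit and eBayes and Benjamini-Hochberg adjustment over all genes. The fit was tested on simulated data. The labels give separate mice, so p-values measure the spread between animals. The members and lists were chosen with earlier results of these data known. All 37 members are named, with the 4 lowest adjusted p-values among the genes that passed in each further pathway list, the 3 lowest of each marker list, and Htt. Alternatives changed the sex term, prior, normalization, filter, probe set rule, floor, array weights and the mice included.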

Additional observations from a re-analysis of the deposited data

Results flagged for a closer look

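In 7 of 140 groups of 4 mice, 1 per gene named and genotype, a single mouse lay far from the other 3 (Dixon's test), and chance alone marks about 5% of such groups. For Lamp1, wild-type 200 stood at 11.04, against 11.18 to 11.19 in the other wild types. For Vcp, wild-type 170, the array with the wide 3' minus 5' difference, stood at 10.63, against 10.78 to 10.81. For Atp6v1b2, wild-type 180 stood at 11.3, against 11.22 to 11.23. For the microglial gene Aif1, mutant 141 stood at 6.42, against 6.28 to 6.3 in the other mutants, and wild-type 180 at 6.37, against 6.71 to 6.76 in the other wild types. For Opalin, mutant 191 stood at 8.66, against 8.5 to 8.51, and for Rbfox3, mutant 141 stood at 11.66, against 11.72 to 11.73.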

How the results depend on the processing

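Of 20 alternatives, Ctsl passed in 17 and Sqstm1 in 18, and 10 members passed in at least 1 while 27 passed in 0. No member changed sign while it passed, and 14 changed sign in some alternative, over 42 of 739 values. The count of members that rose, 2 in the reported fit, was 4 with no term for sex, 6 with a trended and robust prior, 6 without the dimmer genes, and 4 with no term for sex and without mouse 191, 161 or 170. Calls over all genes also grew, from 2258 to 2758 with no term for sex (7.66% higher and 7.5% lower), 2767 with the trended and robust prior and 2540 without the dimmer genes. That last filter kept only genes with a mean signal above the median gene, so its 2540 calls are a larger share of fewer genes. Shares by direction were not computed for the prior and the filter. The count that fell, 0 in the reported fit, was 2 with no term for sex and 1 with the trended and robust prior, with quantile normalization repeated, without the dimmer genes, and with no term for sex and without mouse 191, 161 or 170. Leaving out 1 mouse with sex kept gave 0 to 5 members that rose, 0 to 1 that fell, 1 to 13 further pathway genes that rose against 14, 1 to 4 that fell against 4, and 702 to 2258 changed genes in all against 2258, with 702 without mutant 191 and 864 without wild-type 161. With no term for sex 7 further pathway genes fell. Leaving out 191 or 161 leaves a genotype with 1 sex, and sex and genotype are then separated by fewer mice. The alternative with wild-type 170 left out and no term for sex was chosen after seeing the data. No paired analysis was possible because the groups share no mouse number. Values under 5 lie near the floor of the arrays, where changes are compressed.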

Other observations

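Sex was compared over the same mice, 3 of 4 mutants and 1 of 4 wild types being female. No member differed between females and males at an adjusted p under 0.05 in limma (0 of 37). For Atg10 the female minus male difference was -0.38 (unadjusted p = 0.0121, adjusted p = 0.362). The difference of the genotype effect between the sexes had an unadjusted p under 0.05 for 2 members, Atg7 at 0.53 (unadjusted p = 0.0371) and Atg10 at 0.55 (unadjusted p = 0.0185), and the lowest adjusted p among the members was 0.969. A single mutant male and a single wild-type female carry these differences.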
